A study of Mus musculus with 31 samples.

Results

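The genes described here handle heme and iron: Hmox1, Blvrb, Hpx, Tfrc, Fth1, Slc40a1, Cp and Slc11a1. They are 8 of the 22609 genes listed in the deposited counts and were chosen by name for their known roles, with earlier results of these data known. The data are bulk RNA-seq of masseter muscle (MM), the main jaw-closing muscle, from 31 adult male C57BL/6J mice with 1 library per mouse. The left MM was injected with complete Freund's adjuvant (CFA), an emulsion with killed mycobacteria that provokes inflammation, with collagenase type 2 (Col), a crude enzyme preparation that digests extracellular matrix, or with vehicle. In the CFA experiment, 3 mice belonged to each of the 1d post-CFA, 5d post-CFA and vehicle groups. In the Col experiment, 3 mice received vehicle, 4 mice belonged to each of the 0.2U groups labelled 1C and RPC, and the 10U dose was given to 4 mice collected at 2d, 3 at 6d and 4 at 12d. The study's text gives 1d and 14d for the groups labelled 2d and 12d, the labels' days are used here, and the labels give no day for the vehicle and 0.2U groups. All mice were wild type, and C57BL/6 mice are known to carry a loss-of-function form of the Slc11a1 protein, which a read count does not show.

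Heme released from hemoglobin or myoglobin is bound in plasma by hemopexin (Hpx) and is opened by heme oxygenase 1 (Hmox1), an inducible enzyme, to biliverdin, carbon monoxide and iron. Biliverdin reductase B (Blvrb) reduces biliverdin, and the iron enters ferritin, whose heavy chain is Fth1, or leaves the cell through ferroportin (Slc40a1), helped by the ferroxidase ceruloplasmin (Cp). Transferrin receptor 1 (Tfrc) brings iron into cells, and Slc11a1 moves divalent metals out of the phagosomes of macrophages and neutrophils. In muscle, damaged fibers release myoglobin, and macrophages that clear them are known to express much of this pathway.

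Part of this pathway is controlled after transcription through iron-responsive elements, hairpins in the untranslated region (UTR) of the mRNA that iron regulatory proteins bind when iron is scarce. In a 5′ UTR the bound protein blocks translation, and in the 3′ UTR of Tfrc it protects the mRNA from decay, so that a count of Tfrc mRNA can carry such control while counts of Fth1 and Slc40a1 mRNA need not. The elements are shown because they separate these 3 genes from the other 5. A search of mm9 transcripts for the loop letters CAGTGN with N other than G, a C that bulges 6 bases before the loop, and 5 paired bases on each side found elements in these 3 members and in no other member. The same search matched 0.111% of 19854 genes with a 5′ UTR and 0.462% of 19915 genes with a 3′ UTR, and a match is a description of letters, not a measured site. Each sequence runs 5′ to 3′ on the gene's strand, with the loop in capitals.
Fth1, 5′ UTR, chr19:10057222-10057250, plus strand: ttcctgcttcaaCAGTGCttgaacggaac
Slc40a1, 5′ UTR, chr1:45982310-45982338, minus strand: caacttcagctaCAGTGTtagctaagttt
Tfrc, 3′ UTR, chr16:32631305-32631333, plus strand: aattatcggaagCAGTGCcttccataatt
Tfrc, 3′ UTR, chr16:32631684-32631712, plus strand: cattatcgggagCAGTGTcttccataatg
Tfrc, 3′ UTR, chr16:32631749-32631777, plus strand: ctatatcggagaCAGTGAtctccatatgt
Tfrc, 3′ UTR, chr16:32631796-32631824, plus strand: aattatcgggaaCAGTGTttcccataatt

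The libraries held 14843778 to 29076671 reads on genes (median 20834472). Library-size-scaled counts (CPM, scaled by TMM over the 31 libraries) are the values given per mouse, in the order of the mouse numbers in the labels. Where nothing in the labels says more about the mice of a group, a p-value measures the spread between these libraries. In all 11 libraries of 10U Col, 0.331 to 0.399% of reads were ambiguous between genes, against 0.0758 to 0.138% in the other 20, the Col vehicle group included. The 10U mice thus differed from their vehicle mice in this share as well as in treatment, and both cannot be told apart, whereas the 2d, 6d and 12d groups were alike in it. Mouse 4 of the 2d group stood apart from the other 3, with skeletal muscle markers summing to 83200 CPM against 34600 to 44800, and results that rest on it are also given without it. In bulk MM, fewer cells of a type and less RNA per cell cannot be told apart.

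CPM divided by exon length in kilobases (RPKM) allow levels to be compared between genes. In the Col vehicle group Fth1 was the most abundant of the 8, at 1453 ± 483 RPKM (SD, n = 3). Tfrc followed at 34.4 ± 3.94, Blvrb at 13.9 ± 4.89, Slc11a1 at 8.78 ± 1.13, Slc40a1 at 8.35 ± 2.05, Hmox1 at 7.22 ± 1.84 and Cp at 3.33 ± 1.67 RPKM. In this order Slc11a1, Slc40a1 and Hmox1 overlapped their neighbours over the 3 mice, whereas the gaps between the other neighbours were outside the spread of the mice, narrowly so between Hmox1 (lowest 5.26) and Cp (highest 5.25). At 2d post-Col (10U) Hmox1 reached 159 ± 91.1 RPKM (n = 4) and stood second in its mean to Fth1, at 1597 ± 395, while Tfrc was at 20.3 ± 13.3 RPKM. In mouse 4 of that group Tfrc, at 40.3 RPKM, was above Hmox1, at 32.1, whereas Hmox1 was above Tfrc in the other 3 mice.

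**Figure D1:**
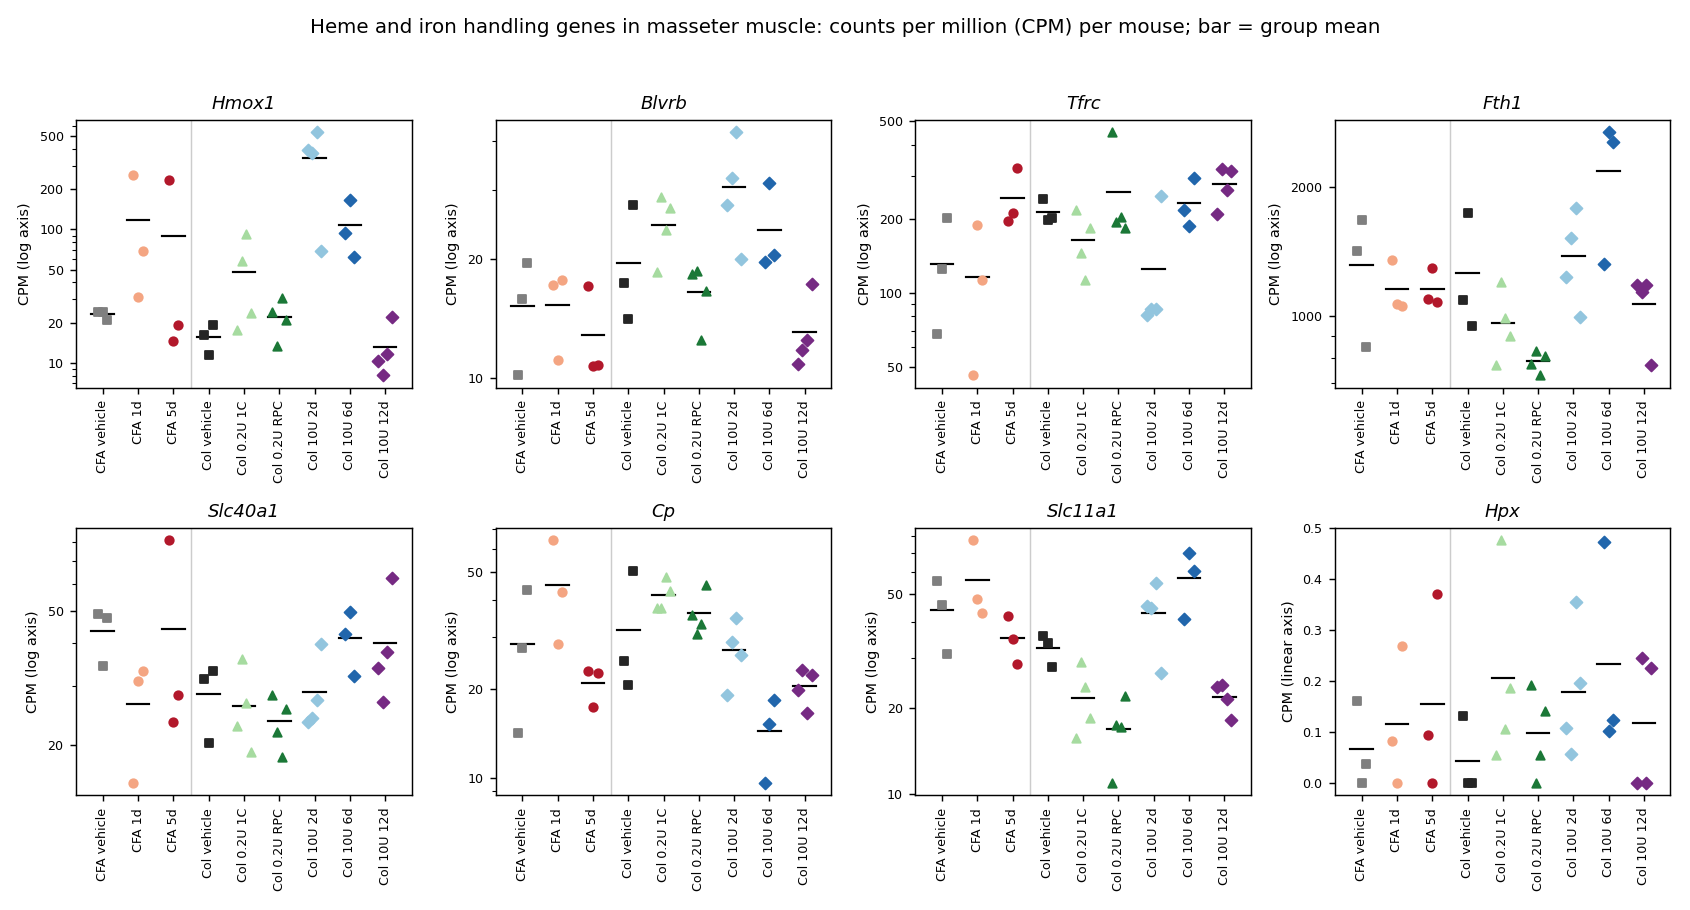
CPM of the 8 genes (y axis, log scale except Hpx) in each of the 31 mice, by group (x axis), with points for mice and a bar for the group mean. Hmox1 sits between 69.4 and 538 CPM in the 2d mice of 10U Col and between 11.4 and 19.2 CPM in the Col vehicle mice, and Hpx stays below 0.5 CPM in all groups.

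Hmox1 (chr8:77617490-77624495, plus strand of mm9) carried the clearest change among these genes. At 2d post-Col (10U) the 4 mice had 396, 372, 538 and 69.4 CPM of Hmox1, and the 3 vehicle mice had 16.2, 11.4 and 19.2. The lowest treated mouse stood above the highest vehicle mouse, although mouse 4 was far below the other 3. Hmox1 rose 21.3-fold at 2d (log2 fold change 4.41, SE 0.69, adjusted p = 0.0393, edgeR). It was the only one of the 7 tested genes called in this comparison, in which 1.14% of 14373 tested genes were called up and 1.08% down. The size held between 4.10 and 4.75 on the log2 scale when each mouse was left out, but the adjusted p ranged from 0.000432 without mouse 4 of the 2d group to 0.18. The call was lost when any one of vehicle mice 1 and 2 or 2d mice 1, 2 and 3 was left out. In those fits 0.0843 to 0.176% of all tested genes were called in either direction, against 2.22% over all mice.

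At 6d post-Col (10U) the 3 mice had 94.3, 168 and 62.0 CPM of Hmox1, again all above the vehicle mice. Hmox1 rose 6.73-fold over vehicle (log2 fold change 2.75, SE 0.39, adjusted p = 0.00515, edgeR), a call that no left-out mouse removed (adjusted p 0.00719 to 0.0235). At 12d the 4 mice had 10.2, 8.01, 11.6 and 22.1 CPM, which overlapped the vehicle mice (log2 fold change -0.23, SE 0.37, adjusted p = 0.779). Hmox1 fell by 3.03 on the log2 scale from 6d to 12d (SE 0.42, adjusted p = 0.00899), with no overlap between the groups. The step from 2d to 6d missed the threshold over all mice (log2 fold change -1.66, SE 0.65, adjusted p = 0.15), and passed it without mouse 4 of the 2d group at -2.0 (adjusted p = 0.0056). Over its other settings that adjusted p ran from 0.0248 to 0.185, and over the left-out mice from 0.0056 to 0.38. The 0.0248 came from the replicate block, a fit with the mouse number as a factor, which also set mouse 4 aside.

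With the 12d group as reference, a choice made after seeing the data because its share of ambiguous reads was alike, Hmox1 stayed called at 2d and at 6d. In this setting 3 members were called at 2d, Blvrb, Slc11a1 and Hmox1, and the same 3 at 6d, where it repeats the comparison of 6d with 12d. At 2d against 12d, 8.75% of 14459 genes were called in either direction.

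After CFA and low-dose Col, Hmox1 was not called in edgeR and varied widely among the treated mice. At 1d post-CFA it stood at 255, 31.2 and 68.6 CPM and in the CFA vehicle mice at 24.1, 23.8 and 21.0, so that every CFA mouse was above every vehicle mouse. The log2 fold change was 2.34 with an SE of 0.68 (unadjusted p = 0.0097, adjusted p = 0.924, edgeR), and DESeq2 gave 2.33 with an adjusted p of 0.03. Over the other settings the adjusted p ran from 0.03 to 0.924, and over the left-out mice from 0.104 to 1. The log2 fold change was 1.15 without 1d mouse 1, the mouse with 255 CPM, and up to 2.79 without the others. At 5d post-CFA mouse 1 had 233 CPM and the other mice had 14.6 and 19.1, below the vehicle mice. The log2 fold change of 2.0 (SE 1.0, adjusted p = 0.441) rested on that mouse and was -0.41 without it.

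In the 0.2U Col groups Hmox1 was at 17.6, 58.1, 93.2 and 23.4 CPM in group 1C and at 24.0, 13.2, 30.5 and 21.0 CPM in group RPC. Mouse 1 of 1C and mouse 2 of RPC fell within the vehicle range, and the other mice of both groups lay above it. The log2 fold changes over vehicle were 1.63 (SE 0.58, adjusted p = 0.328) in 1C and 0.51 (SE 0.31, adjusted p = 0.481) in RPC.

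**Figure D2:**
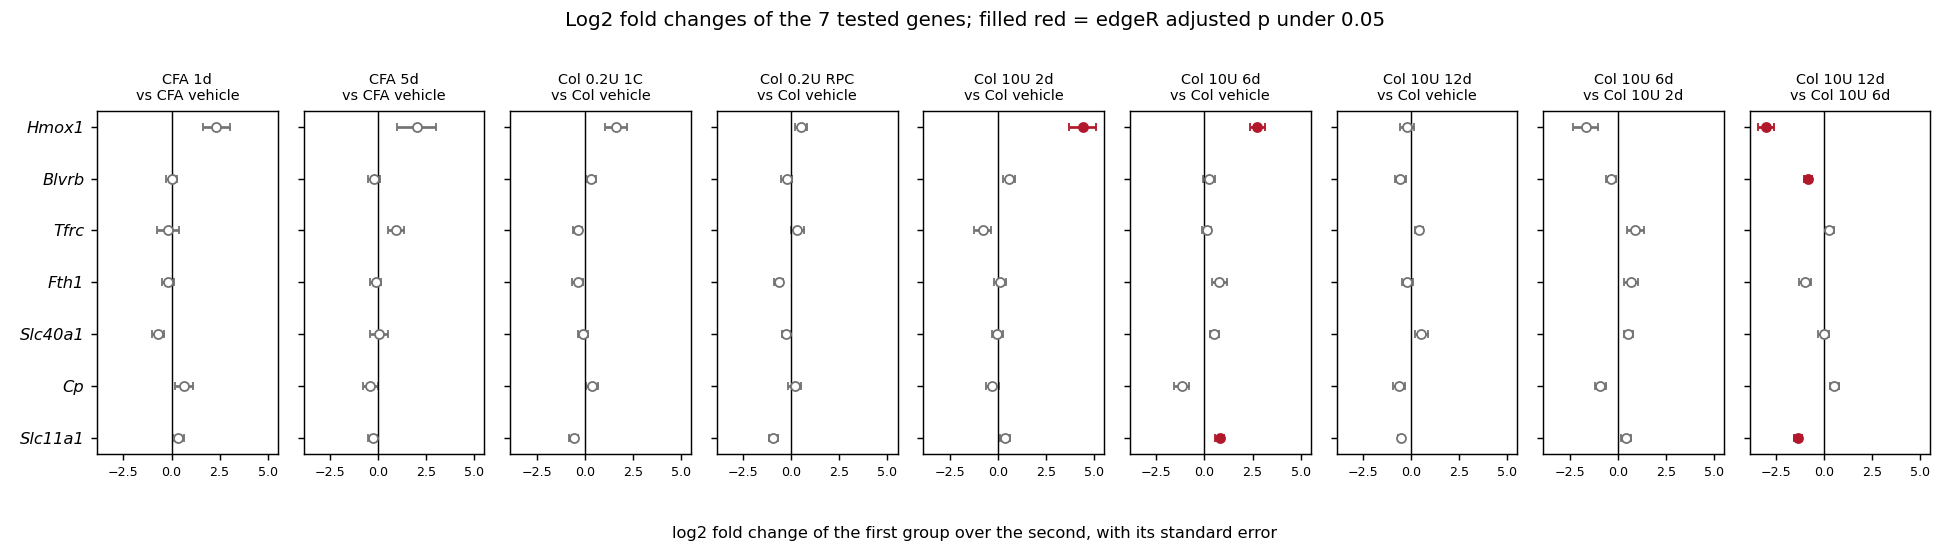
Log2 fold changes (x axis) with standard errors for the 7 tested genes (y axis) in 9 comparisons, 1 panel each, with filled red points for an adjusted p under 0.05 in edgeR. Filled points appear for Hmox1 at 2d and 6d post-Col (10U), for Slc11a1 at 6d, and for Hmox1, Blvrb and Slc11a1 from 6d to 12d.

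Blvrb (chr7:28232997-28251163, plus strand) had the same order of group means as Hmox1 over the 10U and Col vehicle groups, in a narrower range, but not after CFA or 0.2U Col. Its 2d mice had 27.5, 32.2, 42.0 and 20.1 CPM, its 6d mice 19.7, 31.1 and 20.6, its 12d mice 10.9, 11.8, 12.5 and 17.4, and the Col vehicle mice 17.4, 14.1 and 27.4. Every 12d mouse was below every 6d mouse, and the other groups overlapped the vehicle mice. Blvrb fell by 0.84 on the log2 scale from 6d to 12d (SE 0.21, adjusted p = 0.0295, edgeR), a call that 6 of 7 left-out mice removed (adjusted p 0.00264 to 0.127), all except mouse 4 of the 12d group. Against vehicle it was at a log2 fold change of 0.58 at 2d (SE 0.33, adjusted p = 0.24). In the remaining groups Blvrb lay between 10.2 and 28.7 CPM.

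Hpx (chr7:112740127-112748630, minus strand), the plasma heme carrier made mainly in liver, had 0 to 11 reads in every library. It reached the count minimum in no comparison and so was not tested, and any change of it was not detectable at this depth. The other 7 members passed that minimum in every comparison.

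Tfrc (chr16:32609006-32632880, plus strand) had separate levels among the 2d mice. Mice 1, 2 and 3 at 2d post-Col (10U) had 81.1, 85.6 and 86.0 CPM, and mouse 4 had 249, while the vehicle mice had 241, 197 and 201. The first 3 mice were below all vehicle mice and mouse 4 was above them. Over all 4 mice the log2 fold change was -0.80 (SE 0.43, adjusted p = 0.222, edgeR). It passed with the replicate block (-1.38, adjusted p = 0.00863), the lowest of the other settings. No vehicle mouse has the number 4, so the block also set mouse 4 aside. It is not separate from the fit without that mouse. Without mouse 4 the log2 fold change was -1.39 with an adjusted p of 0.00121, within a range of 0.00121 to 0.44 over the left-out mice.

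At 6d Tfrc was at 217, 187 and 294 CPM and at 12d at 210, 321, 262 and 315 CPM. Those mice lay within or above the vehicle range except mouse 2 at 6d, and neither comparison with vehicle passed the test (adjusted p = 0.745 and 0.348). From 2d to 6d the log2 fold change was 0.91 (SE 0.44, adjusted p = 0.234), and 1.49 without mouse 4 of the 2d group (adjusted p = 0.00169, within 0.00169 to 0.467 over the left-out mice).

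After CFA, Tfrc was at 46.0, 190 and 113 CPM at 1d, at 196, 212 and 321 CPM at 5d and at 67.8, 124 and 201 CPM in the vehicle mice. The vehicle mice spanned most of the 1d range, and 2 of 3 mice at 5d stood above all of them. The log2 fold change at 5d was 0.93 (SE 0.41, adjusted p = 0.382), and it was 1.42 with an adjusted p of 0.0139 without vehicle mouse 3, within 0.0139 to 0.844 over the left-out mice. In the 0.2U Col groups Tfrc was at 217, 145, 113 and 184 CPM in 1C and at 451, 195, 204 and 183 CPM in RPC, where mouse 1 stood far above the rest.

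Across the 31 libraries Hmox1 and Tfrc had a Spearman correlation of -0.551, given without a p because libraries of a group share treatment and tissue makeup. The 4 libraries with the most Hmox1 were the 2d mice 1 to 3 and CFA 1d mouse 1, and those had 4 of the 5 lowest Tfrc levels, with CFA vehicle mouse 1. CFA 5d mouse 1 departed from this order, with 233 CPM of Hmox1 and 196 CPM of Tfrc.

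**Figure D3:**
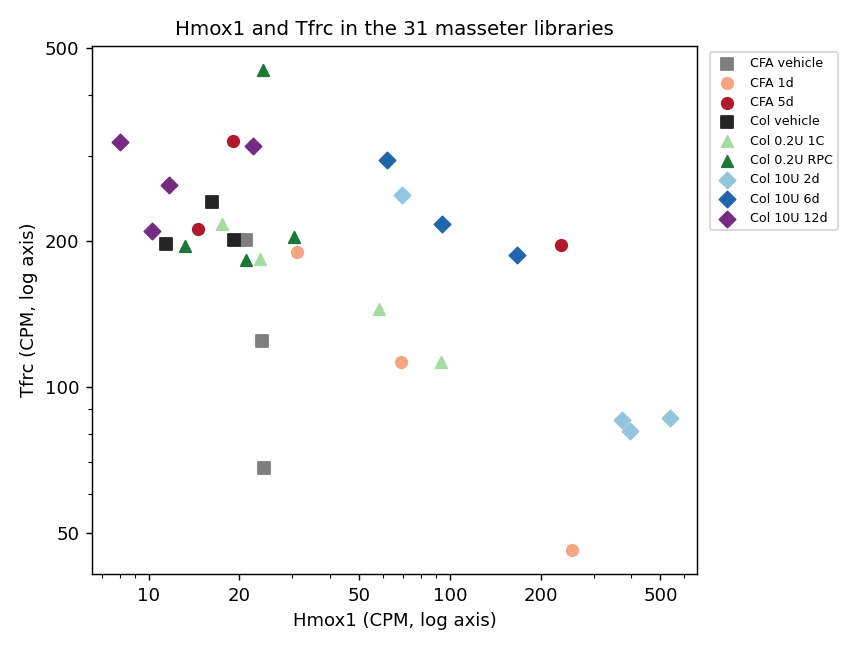
Tfrc (y axis) against Hmox1 (x axis), both in CPM on log scales, with 1 point for each of the 31 mice and colors for groups. Mice 1, 2 and 3 at 2d post-Col (10U) lie at the lower right with 372 to 538 CPM of Hmox1 and 81.1 to 86.0 CPM of Tfrc, and mouse 4 lies at 69.4 and 249 CPM.

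Fth1 (chr19:10057193-10059582, plus strand) was high in every group and reached its highest levels at 6d post-Col (10U). The 6d mice had 1324, 2679 and 2536 CPM and the vehicle mice 1090, 1734 and 950.1. Mouse 1 at 6d lay within the vehicle range and the other 2 mice lay above it, with a log2 fold change of 0.78 (SE 0.38, adjusted p = 0.159, edgeR). This passed in a fit over all 31 libraries (adjusted p = 0.0434), the lowest of the other settings. At 12d the mice had 1186, 1140, 1186 and 771 CPM, all below the 6d mice, and the log2 fold change from 6d to 12d of -1.0 (SE 0.32) had an adjusted p of 0.0506. It passed the threshold without 6d mouse 1 (adjusted p = 0.0468) or 12d mouse 4 (0.0255), and in DESeq2 (0.00426), within 0.00426 to 0.0562 over the other settings and 0.0255 to 0.146 over the left-out mice.

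In the other groups Fth1 was at 1233, 1521, 1782 and 995 CPM at 2d, from 769 to 1203 CPM in 1C and from 729 to 829 CPM in RPC, from 1059 to 1351 CPM and 1079 to 1293 CPM at 1d and 5d post-CFA, and from 849.9 to 1678 CPM in the CFA vehicle mice. The RPC mice lay below all Col vehicle mice, at a log2 fold change of -0.65 (SE 0.23, adjusted p = 0.309). Of the 50-base windows of Fth1 exons, 9.25% also occur elsewhere in the genome, where reads aligned to more than 1 place were not counted, so its level is uncertain to that extent.

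Ferritin light chain, Ftl1, is not one of the 8 genes but forms ferritin with Fth1. It rose at 6d post-Col (10U), from 93.3 to 125 CPM in the vehicle mice to 259 to 468 CPM (log2 fold change 1.61, SE 0.26, adjusted p = 0.00774, edgeR), and fell by 1.94 on the log2 scale from 6d to 12d (SE 0.32, adjusted p = 0.0122). It was chosen here after its values were seen.

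Slc40a1 (chr1:45964915-45982439, minus strand), the iron exporter, was called in no comparison. The 2d mice had 23.3, 24.1, 27.1 and 39.9 CPM, the 6d mice 42.7, 49.4 and 32.1, the 12d mice 33.8, 26.7, 37.8 and 62.4, and the Col vehicle mice 31.3, 20.3 and 33.1. All these groups overlapped. From 2d to 6d the log2 fold change was 0.55 (SE 0.23, adjusted p = 0.182), and without mouse 4 of the 2d group it was 0.75 with an adjusted p of 0.0128, within 0.0128 to 0.444 over the left-out mice. At 1d post-CFA the mice had 15.4, 31 and 33.1 CPM, all below the vehicle mice at 49.0, 34.4 and 47.5 (log2 fold change -0.71, SE 0.33, adjusted p = 0.924). At 5d post-CFA mouse 1 had 81.2 CPM and the others 23.3 and 28.2, and mouse 1 was also the mouse with the high Hmox1. In the 0.2U groups Slc40a1 lay between 18.4 and 35.9 CPM.

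Cp (chr3:19857054-19909145, plus strand), a ferroxidase of plasma and cell surfaces, had its lowest levels at 6d post-Col (10U). The 6d mice had 9.58, 15.2 and 18.4 CPM, the vehicle mice 24.8, 20.6 and 50.2, and the 2d mice 19.1, 28.8, 34.9 and 26.1. Every 6d mouse was below every vehicle mouse and every 2d mouse. The log2 fold change at 6d was -1.18 over vehicle (SE 0.39, adjusted p = 0.059, edgeR) and -0.90 over 2d (SE 0.28, adjusted p = 0.0888), and neither passed the threshold. The first passed in DESeq2 (adjusted p = 0.0138), in a fit over all 31 libraries (0.014) and without vehicle mouse 2 (0.0346). It ran from 0.0138 to 0.113 over the other settings, the highest with the 12d group as reference, and from 0.0346 to 0.181 over the left-out mice. The second passed in DESeq2 (0.0268), with the replicate block (0.0149, the lowest of the other settings) and without 2d mouse 4 (0.0474). The block and the left-out mouse are not separate here, since the block also set 2d mouse 4 aside. Over the left-out mice the second ran from 0.0474 to 0.272. At 12d Cp was between 16.6 and 23.2 CPM.

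In the 0.2U groups Cp was between 30.8 and 47.9 CPM, at 1d post-CFA at 64.3, 28.4 and 42.8 CPM, at 5d post-CFA at 23.0, 17.4 and 22.7 CPM, and in the CFA vehicle mice at 14.2, 27.5 and 43.5 CPM. None of these comparisons passed the test. Exons of Hps3 on the opposite strand share 108 bases of Cp, or 1.13% of its exon length.

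Slc11a1 (chr1:74421777-74432636, plus strand), the phagosomal metal transporter, rose at 6d post-Col (10U). The 6d mice had 40.9, 69.9 and 60.6 CPM and the vehicle mice 35.8, 33.9 and 27.8, with no overlap. The rise was 1.73-fold (log2 fold change 0.79, SE 0.22, adjusted p = 0.0333, edgeR), and 5 of 6 left-out mice, all but mouse 1 of the 6d group, moved the adjusted p past 0.05 (0.0343 to 0.13). The adjusted p was 0.0884 with the replicate block and 0.07 with both vehicle groups pooled. The call was also lost where a fold change over 2 was required. Slc11a1 fell by 1.36 on the log2 scale from 6d to 12d (SE 0.19, adjusted p = 0.00899), to 23.8, 24.1, 21.4 and 18.2 CPM, and no left-out mouse removed this call (adjusted p 0.000965 to 0.0445). All 12d mice were also below all vehicle mice, at a log2 fold change of -0.54 (SE 0.15, unadjusted p = 0.00632, adjusted p = 0.146, edgeR), which passed in DESeq2 (adjusted p = 0.0429, the lowest of the other settings).

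The 2d mice had 45.5, 44.8, 54.6 and 26.5 CPM of Slc11a1, with mouse 4 below all vehicle mice and the other 3 above them. The log2 fold change of 0.36 (SE 0.25, adjusted p = 0.326) was 0.53 without mouse 4 (adjusted p = 0.0354, within 0.0354 to 0.596 over the left-out mice). In the 0.2U groups the mice had 15.6, 28.9, 23.7 and 18.4 CPM in 1C and 10.9, 17.4, 17.1 and 22 CPM in RPC. The RPC mice were all below the vehicle mice, at a log2 fold change of -0.93 (SE 0.22, adjusted p = 0.265, edgeR). DESeq2 gave an adjusted p of 0.0188 for it, the lowest of the other settings. After CFA, Slc11a1 was at 77.6, 48.2 and 43.0 CPM at 1d, at 42.1, 34.8 and 28.4 CPM at 5d and at 55.8, 45.8 and 30.8 CPM in the vehicle mice, which overlapped both.

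Over the 7 tested members, edgeR called 1 at 2d and 2 at 6d post-Col (10U), all up, and 3 from 6d to 12d, all down. At 6d the background was 14% of 14281 genes called up and 13.3% called down, and from 6d to 12d it was 13.4% up and 13% down of 14344 genes. The 2 of 7 at 6d are to be read against that share. Without mouse 4 of the 2d group, 3 members were called at 2d, namely Hmox1 and Slc11a1 up and Tfrc down, against 36.3% of 14160 genes called in either direction. From 2d to 6d it was 4, namely Tfrc and Slc40a1 up and Hmox1 and Cp down, against 28.8% of 14234 genes. With all mice none was called from 2d to 6d, against 4.68% of genes up and 4.05% down. There 3 of 7 members and 26.6% of genes had an unadjusted p under 0.05, and DESeq2 called 2 members and 18.7% of genes. The members not yet given for this step were Blvrb (log2 fold change -0.34, adjusted p = 0.486, edgeR), Fth1 (0.68, adjusted p = 0.282) and Slc11a1 (0.44, adjusted p = 0.351).

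No member was called in the other comparisons with vehicle in edgeR. At 5d post-CFA the background was 1.06% up and 0.0428% down, with 0 members and 14% of genes at an unadjusted p under 0.05, and 0 members and 6.41% of genes called by DESeq2. At 12d post-Col (10U) it was 0.762% up and 0.466% down, with 1 member, Slc11a1, and 17.4% of genes at an unadjusted p under 0.05, and the same member and 6.36% of genes called by DESeq2. At 1d post-CFA and in the 1C and RPC groups the background was 0% in either direction. At an unadjusted p under 0.05 there were 1, 2 and 2 members of 7 in these groups, against 4.22%, 12.6% and 13.5% of genes. DESeq2 called 1, 0 and 1 members, against 0.402%, 3.58% and 3.1% of genes.

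Whether the changes differed between the agents was tested as an interaction, with different days in each experiment. The change of Hmox1 at 2d post-Col (10U) exceeded that at 1d post-CFA by 2.07 on the log2 scale (SE 0.98, adjusted p = 0.721, edgeR), a difference that was 3.23 without CFA 1d mouse 1 and otherwise 1.62 to 2.41 over the left-out mice. Its change at 6d post-Col (10U) exceeded that at 5d post-CFA by 0.73 (SE 1.17, adjusted p = 0.715). Without CFA 5d mouse 1, the mouse with 233 CPM, the latter was 3.25 with an adjusted p of 0.0114, within 0.0114 to 0.919 over the left-out mice. For Slc11a1 the later difference was 1.06 (SE 0.34, adjusted p = 0.0658), and it passed in DESeq2 (0.0208), without CFA vehicle mouse 3 (0.0272) and without 6d mouse 1 (0.0474). No member was called in either test, against 0.0946% of genes in the early one and 11.3% in the later one. At an unadjusted p under 0.05 there were 0 and 1 members, against 6.83% and 28.9% of genes, and DESeq2 called 0 and 1, against 0.73% and 18.6%. The vehicle groups of both experiments had no member called and 0.0426% of genes called, with 0 members and 2.32% of genes at an unadjusted p under 0.05 and 0 members and 0.462% of genes in DESeq2. Between them the log2 fold changes of the 7 tested members ran from -0.60 for Slc40a1 to 0.72 for Tfrc.

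The other genes of the pathway, 70 genes in a fixed list by role, had few calls outside the 6d group. At 2d post-Col (10U) 0 rose and 2 fell of 63 tested, namely Hmox2, the constitutive heme oxygenase, from 40 to 59.5 CPM in vehicle mice to 22.9 to 32.1 CPM (log2 fold change -0.95, SE 0.19, adjusted p = 0.0488, edgeR), and Pcbp2, which delivers iron to ferritin and also binds RNA (log2 fold change -1.08, SE 0.20, adjusted p = 0.0483). Both also fell at 12d (-0.93 and -0.78 on the log2 scale), where 0 rose and 2 fell of 61. Hmox2 was at 31.3 to 34.6 CPM at 6d, also below all vehicle mice. The 10U groups all had the higher share of ambiguous reads, which cannot be told apart from treatment in these falls. At 5d post-CFA 1 of 61 pathway genes rose and 0 fell, Slc46a1, a folate and heme transporter (log2 fold change 2.28, SE 0.27, adjusted p = 0.0281). Salivary gland markers were high in the same mice, as given below. None of the 70 genes was called at 1d post-CFA, in 1C or in RPC.

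At 6d post-Col (10U) 6 of 65 rose and 16 fell, where 14% of all tested genes rose and 13.3% fell. The largest changes were those of Lcn2, which binds iron-carrying siderophores, from 2.33 to 103 CPM in the vehicle mice to 0.301 to 0.747 CPM (log2 fold change -6.38, SE 1.39, adjusted p = 0.0178, edgeR), while neutrophil markers fell as well, of Alas2, the first enzyme of heme synthesis in erythroid cells, from 6.05 to 59.3 CPM to 1.07 to 1.51 CPM (-4.64, SE 0.79, adjusted p = 0.00911), and of Hephl1, a ferroxidase, from 0 to 0.349 CPM to 1.16 to 1.75 CPM (2.97, SE 0.73, adjusted p = 0.0251). Of 9 heme synthesis genes, 0 rose and 6 fell at 6d, Alas2 among them. From 6d to 12d 10 of 66 pathway genes rose and 8 fell, and from 2d to 6d 1 of 65 rose and 4 fell. Of 7 antioxidant genes of the Nrf2 programme, which also controls Hmox1, 0 were called at 2d and 0 at 6d. Their log2 fold changes at 2d had a median of 1.36, against 0.02 over all tested genes, and 6 of 7 were above 0. At 1d post-CFA, where 0 were called as well, the median was 0.89, against -0.01 over all tested genes, and 7 of 7 were above 0. The part of this programme in the values of Hmox1 was not tested. Srxn1, which repairs oxidized peroxiredoxins and was chosen here after its values were seen, had 42.1 to 356 CPM at 2d and 42.3 to 59.5 CPM in the vehicle mice (log2 fold change 2.32, SE 0.65, adjusted p = 0.0683, edgeR). From 6d to 12d 0 rose and 3 fell, namely Gclc, Srxn1 and Slc7a11.

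Markers of other cell types moved with these groups. The 13 monocyte and macrophage markers summed to 846, 1140, 1830 and 700 CPM at 2d, to 2350, 3370 and 1680 CPM at 6d, to 219, 181, 359 and 1270 CPM at 12d and to 377, 173 and 574 CPM in the Col vehicle mice. At 2d 1 of 13 was called up and at 6d 11 of 13, and from 6d to 12d 7 of 13 fell. The median macrophage sum was 991 CPM at 2d and 2350 CPM at 6d, whereas the Hmox1 mean was 343.8 CPM at 2d and 108 CPM at 6d. The markers were not uniform in this step: 9 of 13 were higher at 6d than at 2d, with 4 called up and 0 down. Cd163, the hemoglobin scavenger receptor, belongs to both this list and the pathway list. Its mean was 26.38 CPM at 2d and 9.982 CPM at 6d (log2 fold change -1.38, SE 0.39, adjusted p = 0.0665, edgeR). The part of monocytes and macrophages in the changes of Hmox1, Blvrb and Slc11a1 was not tested.

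The 9 neutrophil markers in the files summed to 135, 309, 464 and 386 CPM at 2d, to 27.6, 33.9 and 24.8 CPM at 6d, to 46.7 to 258 CPM at 12d and to 427, 17.3 and 1620 CPM in the Col vehicle mice. At 6d 0 of 8 tested markers rose and 5 fell (median log2 fold change -5.65 over vehicle), and 7 of 9 fell from 2d to 6d. Lcn2, named above for its fall at 6d, is abundant in neutrophils, and Cp had its lowest levels in the same group, whereas Slc11a1 rose there. The 7 Schwann cell markers summed to 108 to 327 CPM at 6d and to 604 to 1940 CPM in the Col vehicle mice, with 6 of 7 called down. The part of both cell types in the values of Lcn2, Cp and Slc11a1 was not tested.

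Erythroid markers, a measure of blood or marrow RNA, were not called up where Hmox1 was. Of 12 such genes 11 were in the files, and 4 hemoglobin genes, Hba-a1, Hba-a2, Hbb-b1 and Hbb-b2, were at 0 in every library, where reads aligned to more than 1 place were not counted. The sums were 42.9, 66.2, 122 and 30.3 CPM at 2d, 2.02, 3.25 and 2.82 CPM at 6d, and 96.4, 6.98 and 273 CPM in the Col vehicle mice. At 2d 0 of 7 tested markers was called up and 0 down, and at 6d 0 of 4 was called up and 2 down, when Hmox1 was 6.73-fold higher than in vehicle mice. Alas2 belongs to both this list and the heme synthesis list. Red blood cells hold heme but little RNA, so these markers do not measure bleeding, which was not tested. The 8 bone markers summed to 117, 13.7 and 180 CPM in the Col vehicle mice, to 51.3 to 181 CPM at 2d and to 5.07 to 32.6 CPM at 6d. At 6d 0 of 7 tested bone markers rose and 4 fell. The part of bone or marrow in the values of Alas2, Lcn2 and the other heme synthesis genes was not tested.

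Skeletal muscle markers summed to 34600 to 83200 CPM at 2d, to 44300 to 78600 CPM at 6d and to 128000 to 194000 CPM in the Col vehicle mice. At 6d 0 of 10 rose and 3 fell, and at 2d 0 were called. Salivary gland markers, which are not genes of muscle cells, summed to 115, 257000 and 69200 CPM in the Col vehicle mice, to 85300, 96900, 59.6 and 172000 CPM at 2d, to 11.8 to 36.3 CPM at 6d and to 41.6 to 814 CPM at 12d. In RPC, where Fth1 and Slc11a1 were below all vehicle mice, they summed to 43300, 526000, 327000 and 192000 CPM, and in 1C to 178 to 45000 CPM. Among the 2d mice, mouse 3 had the highest Hmox1 and the lowest salivary sum, and mouse 4 the lowest Hmox1 and the highest salivary sum. At 5d post-CFA all 3 mice had 231000 to 270000 CPM of them, against 126 to 25100 CPM in the CFA vehicle mice. Slc46a1, called up at 5d post-CFA, was at 10.5 to 13 CPM there and at 4.59 to 22.9 CPM in RPC. It was at 2.18 to 15.1 CPM in the Col vehicle mice, 3.6 to 6.16 CPM at 2d and 4.14 to 5.41 CPM at 6d post-Col (10U). The part of the salivary gland in the values of the 8 genes and of Slc46a1 was not tested.

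**Figure D4:**
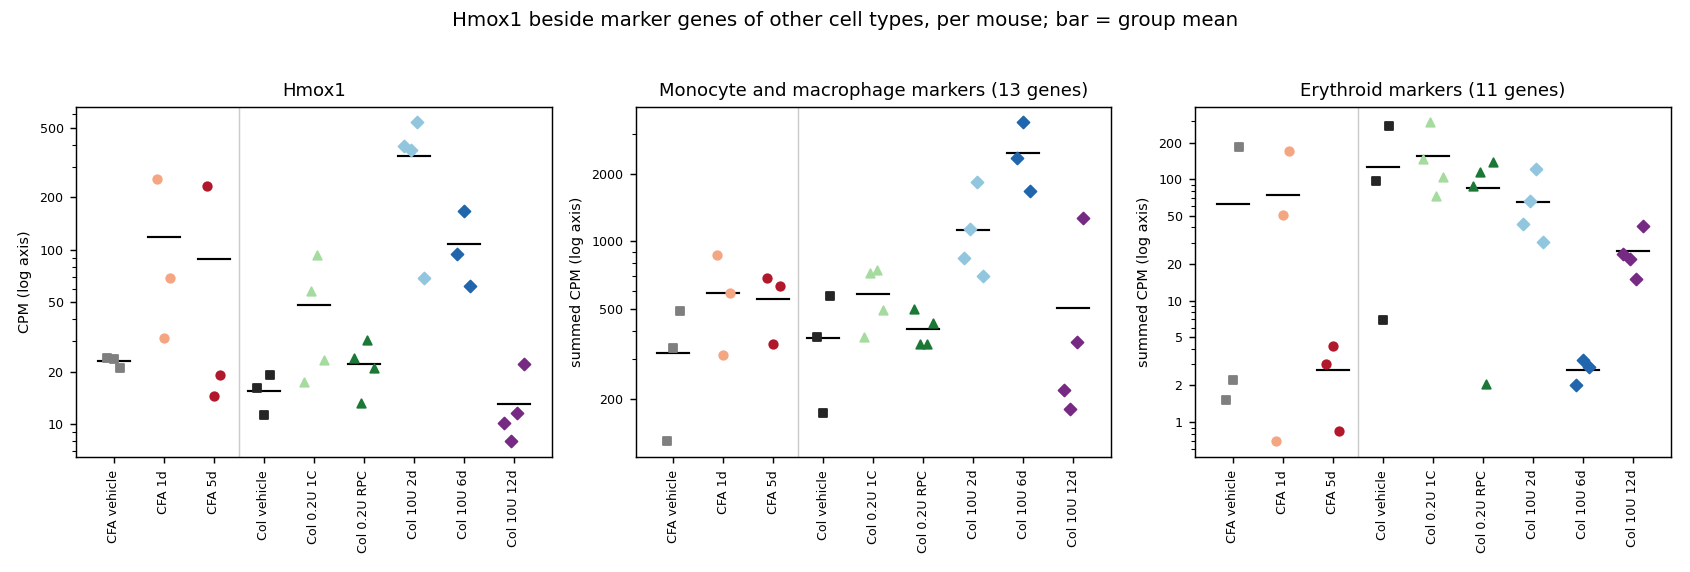
Hmox1 in CPM and the summed CPM of 13 monocyte and macrophage markers and 11 erythroid markers (y axes, log scales) by group (x axis), with points for mice and a bar for the group mean. Macrophage sums are 1680 to 3370 CPM at 6d post-Col (10U) and 700 to 1830 CPM at 2d, whereas erythroid sums are 2.02 to 3.25 CPM at 6d and 30.3 to 122 CPM at 2d.

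The patterns of 6 members were compared with all 15526 genes with 10 or more counts in 3 or more of the 31 libraries, as Spearman correlations of log2 CPM over the 31 libraries. Closest to Hmox1 were Il4ra (0.869), Gnpda1 (0.855) and C5ar1 (0.838). Closest to Blvrb were Prim2 (0.891), Prr11 (0.886) and Brca1 (0.885). Cp was nearest to Lcn2 (0.894), followed by Cd177 and Ltb4r1 (0.828). Fth1 was nearest to Ube2m (0.890), Srp14 (0.877) and Psmc1 (0.876). For Tfrc the values were lower, with Fsd1l (0.798), Ptgr2 (0.778) and Nqo2 (0.762), and for Slc40a1 they were lowest, with Lrrc18 (0.675), Senp8 (0.658) and Fgfr4 (0.656). Among the members themselves the highest correlation was that of Fth1 and Slc11a1 (0.811), followed by Hmox1 and Blvrb (0.572) and Hmox1 and Slc11a1 (0.554).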

How the data were processed

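MM was dissected from the injected side, and stranded poly(A) libraries were sequenced with single-end reads of 50 bases. Per the submitters' processing notes the tools were bcl2fastq, TopHat2 and HTSeq with genome build mm9, without versions. The authors deposited 1 table of raw counts per gene symbol and library, without normalization. The 5 closing lines of unassigned reads were used only for shares of ambiguous reads, and the strand setting of the counting is not given in the sources used here.

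In R 4.3.3, edgeR 4.0.16 tested genes that reached 10 counts in 3 or more compared libraries, with TMM scaling, group as the only factor and the quasi-likelihood test on the compared groups alone. P-values were adjusted by Benjamini-Hochberg over all tested genes, and a gene was called at 0.05. The SE was obtained from each log2 fold change and its F statistic. CPM were scaled by TMM over 31 libraries, and RPKM used exon lengths of GENCODE vM1. Alternatives were DESeq2 1.42.0, its size factors in edgeR, no filter, 1 fit over 31 libraries, pooled vehicles, a fold change over 2, the replicate block and each mouse left out. The block sets aside a mouse whose number occurs in only 1 of the compared groups. No pair of 465 pairs of libraries held identical values.

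The members and lists were chosen with earlier results of these data known. All 8 members are described whatever their values, and of the other pathway genes the rule named the 3 called genes with the largest log2 fold change in each comparison with vehicle. Equal mouse numbers do not mark the same animal. Their deviations correlated above 0.1 in every pair for 1d post-CFA (mean r 0.337) and for the vehicle groups (mean r 0.333), and the replicate block called 0 members in both. The best match had the same number for 2 of 3 mice at 1d post-CFA and in RPC. For the vehicle groups, which belong to different experiments, it did so for 1 of 3. Whether mice were paired cannot be told from these values. The edgeR script was tested on simulated counts. The genes nearest in pattern to Slc11a1 are not reported here.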

Additional observations from a re-analysis of the deposited data

Results flagged for a closer look

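In 32 sets of 4 mice (8 genes in 4 groups), Dixon's test picked 1 mouse in 3 sets, and chance picks about 1 in 20. Tfrc was at 451 CPM in RPC mouse 1, against 183 to 204 CPM in the other RPC mice. Tfrc was at 249 CPM in mouse 4 at 2d post-Col (10U), against 81.1 to 86.0 CPM in the other 2d mice. Fth1 was at 771 CPM in mouse 4 at 12d post-Col (10U), against 1140 to 1190 CPM in the other 12d mice. Mouse 4 at 12d also had the highest macrophage sum of its group, 1270 CPM.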

How the results depend on the processing

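Counts of called members moved by over 1.5 times in these settings. DESeq2 called 1 member at 1d post-CFA, 1 in RPC, 1 at 12d post-Col (10U), 2 from 2d to 6d and 1 in the later interaction, where edgeR called 0. At 2d post-Col (10U), with 1 called, the 12d reference gave 3. At 6d, with 2 called, 1 fit over 31 libraries gave 4 (against 32.4% of genes). Pooled vehicles gave 1 (against 40% of genes) and a required fold change over 2 gave 1 (against 18.7% of genes). Whether replicate numbers pair the mice cannot be told. The replicate block gave 3 at 2d, 1 at 6d and 3 from 2d to 6d (against 31.3%, 10.3% and 15.2% of genes). It changed no other count by more than 1.5 times. At 2d and from 2d to 6d the block also set 2d mouse 4 aside, whose number the other group lacks.

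Leaving out each mouse gave 0 to 3 called members at 2d, 1 to 2 at 6d, 0 to 4 from 2d to 6d, 2 to 4 from 6d to 12d, 0 to 1 at 5d post-CFA and 0 to 1 in the later interaction. The share of all tested genes called moved as well. It ran from 0.0843 to 36.3% at 2d, 5.83 to 41.5% at 6d and 0.881 to 28.8% from 2d to 6d. From 6d to 12d it ran from 1.66 to 54.2%, at 5d post-CFA from 0 to 15.6% and in the later interaction from 3.84 to 18%.

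No called value changed sign in these settings. Uncalled log2 fold changes that changed sign were those of Slc40a1 at 5d post-CFA in 1 fit over 31 libraries (-0.01) and with the replicate block (-0.15), of Slc40a1 in 1C with the block (0.02), and, with the 12d reference, of Cp at 2d (0.34) and Tfrc at 6d (-0.27). Over the left-out mice such values spanned zero at 1d post-CFA for Tfrc (-0.71 to 0.31) and Fth1 (-0.39 to 0.04), at 5d post-CFA for Hmox1 (-0.41 to 2.51), Blvrb (-0.47 to 0.07), Fth1 (-0.34 to 0.06), Slc40a1 (-0.73 to 0.38) and Cp (-0.74 to 0.09), in 1C for Slc40a1 (-0.29 to 0.04), in RPC for Blvrb (-0.45 to 0.12), Tfrc (-0.12 to 0.43) and Cp (-0.07 to 0.72), at 2d for Fth1 (-0.09 to 0.34), Slc40a1 (-0.27 to 0.10) and Cp (-0.56 to 0.20), at 6d for Tfrc (-0.09 to 0.27), at 12d for Fth1 (-0.34 to 0.07), from 6d to 12d for Slc40a1 (-0.33 to 0.13) and between the vehicle groups for Fth1 (-0.31 to 0.16) and Cp (-0.32 to 0.68). The cause was not tested. The 3 or 4 mice per group and the spread between them limit the tests, and Hpx stayed under the count minimum.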
